A study of Anguilla anguilla with 11 samples.

Results

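The transcripts described here are those that the deposited table names fras1, frem1, frem2 or frem3, 21 of the 45974 predicted genes (transcripts) of the European eel in all. They were taken by name, and the names were selected on the difference of the fras1 transcript with the most counts between yellow and silver eels in these same libraries, so that the stage difference is given as a description without a test. The table held 3 fras1, 2 frem1, 15 frem2 and 1 frem3 transcripts. The files do not tell whether transcripts of 1 name are pieces of 1 gene or separate copies. In the RefSeq annotation of the eel (assembly fAngAng1.pri) these names stand for 1 fras1 gene, frem1a and frem1b, and 1 frem3 gene, and its frem2 genes are not reported here. The draft genome identifiers of the table cannot be matched to this annotation.

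Fras1 and the Frem proteins are large proteins of the extracellular matrix with chondroitin sulfate proteoglycan (CSPG) and Calx-beta repeats. Fras1 and Frem2 span the membrane, Frem1 is secreted, and together they form a complex in the basement membrane of embryonic epithelia that anchors it to the tissue beneath. Loss of the complex causes Fraser syndrome in humans, blistering in mice and malformed fin folds in zebrafish, in which fras1, frem2a, frem1a and hmcn1 are known as the pinfin, blasen, rafels and nagel genes. The rete mirabile of the eel swimbladder is a dense bundle of arterial and venous capillaries, and the capillary wall includes a basement membrane.

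Rete mirabile tissue came from eels caught in Lake Constance, 5 yellow eels (the resident feeding stage) and 6 silver eels (the migrating stage), with 1 polyA-selected stranded library per eel and vessels rinsed free of blood with heparinized saline. By title the libraries fall into 2 sets, named FG1835 (3 yellow, 3 silver) and FG1907 (2 yellow, 3 silver). The libraries ran on 2 types of sequencer with different read layouts, and which library ran on which is not given in the sources used here. The tissue label reads rete mirabile, while the RNA protocol in the labels speaks of gas gland tissue. Raw counts summed to 9360429 to 12438185 per library (median 10555968), and relative expression values are these counts divided by a size factor for each library, so that 3 counts correspond to a value of 2.44 to 3.52. They are not corrected for transcript length, so differences are read between libraries and not between transcripts. Words such as abundant or low, and sums over transcripts, describe counts and not numbers of molecules. The first principal component (47.7% of the variance) separated the library sets and the second (14.3%) set the silver eel library FG1907_02 apart, so results are given with and without it. Of the endothelial markers, claudin cld5 (g6920), von Willebrand factor vwf (g357) and the VEGF receptor vgfr2 (g8472) were abundant with mean values of 14619, 11505 and 6609, whereas esam (g8033) was near 0 with 1.40. Abundant too were the smooth muscle and pericyte markers tagl (g17080) and myh11 (g2226), at 37041 and 11478, while desm (g18044) was at 39.3. The epithelial markers k1c18 (g5911) and epcam (g7485) were at 11708 and 3.23. In whole tissue, fewer cells of a type and less RNA per cell cannot be told apart.

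Of the 21 transcripts, 13 had at least 1 read and 6 had enough counts for the fit across transcripts, which took in 23981. These were fras1 g9250 and g3111, frem1 g4607 and g7424, and frem2 g23394 and g20478. Of the remaining 15, fras1 g31226 had 79 reads over all libraries, 6 frem2 transcripts had 1 to 21 reads each, and 7 frem2 transcripts and the frem3 transcript g44853 had none. The tested transcripts take their names from human and mouse proteins, and the share of similar residues in these matches was between 0.437 for frem1 g4607 and 0.525 for frem2 g23394. The e-value of the match was 0 for each of them except frem2 g23394, where it was 2.27e-50. By this measure g23394 had the weakest match of the tested transcripts.

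Fras1 g9250 had the most counts of the fras1 transcripts over all libraries together (9161, against 7464 for g3111) and was higher in yellow than in silver eels within each library set. In the yellow eels its relative expression value was 623, 1892 and 1540 in FG1835_01, 02 and 03 and 927 and 1940 in FG1907_04 and 06. In the silver eels it was 85.0, 399.9 and 8.20 in FG1835_04, 05 and 06 and 419, 156 and 667 in FG1907_01, 02 and 03. The lowest yellow eel (FG1835_01) lay below the highest silver eel (FG1907_03), so the stages overlapped by this 1 pair over all libraries, and they did not overlap inside either set. Silver eels lay below yellow eels inside both sets in 0.509% of the tested transcripts, and over all libraries without overlap in 0.125%. The mean was 1385 ± 587 (SD, n = 5) in yellow and 289 ± 249 (SD, n = 6) in silver eels. The range among silver eels was wide even within FG1835, where FG1835_06 had 10 counts and FG1835_05 had 369.

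**Figure D1:**
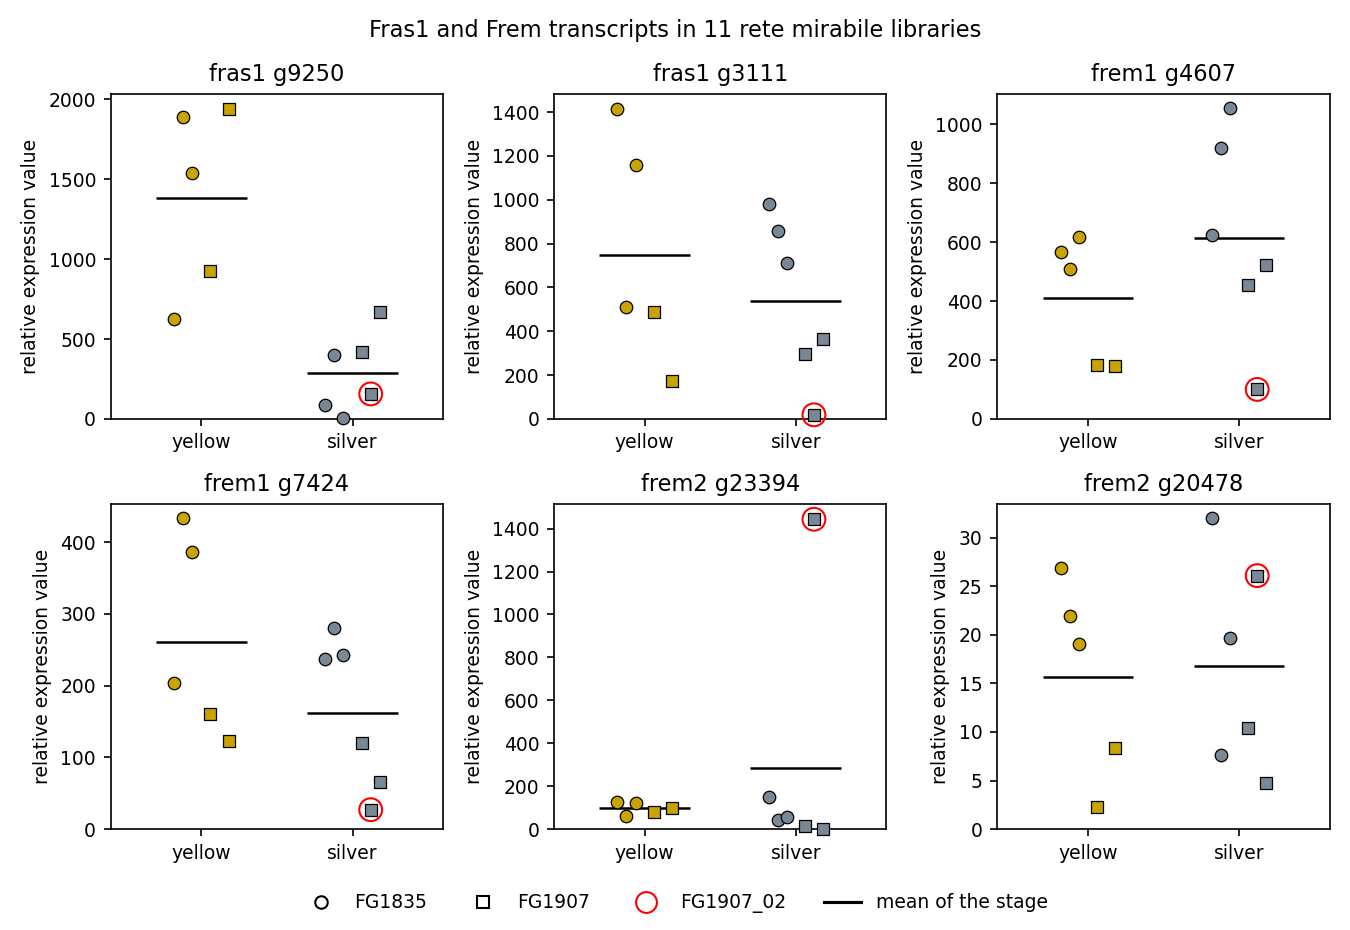
Relative expression value (vertical axis, counts divided by size factors, a separate scale in each panel) of the 6 tested Fras1 and Frem transcripts in the 5 yellow and 6 silver eels. Circles are FG1835 libraries, squares FG1907 libraries, black lines the mean of each stage and the red ring FG1907_02, which is the highest of all libraries for frem2 g23394 (1444) and the lowest for fras1 g3111 (18.8), frem1 g4607 (100.1) and frem1 g7424 (27.1).

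On the log2 scale the edgeR estimate for g9250 was -2.28 (SE 0.72) for silver minus yellow, a level 4.85 times as high in yellow as in silver eels. It was -3.08 (SE 1.00) in FG1835 alone and -1.80 (SE 0.57) in FG1907 alone. Without FG1907_02 it was -2.16 (SE 0.78), and with the library set in the model -2.52 (SE 0.72). The direction was the same in each of these fits, which share the eels whose stage difference chose g9250. The shared direction is therefore a description and adds no support. Over all 23981 transcripts no transcript passed an adjusted p of 0.05 between the stages in edgeR or limma, while DESeq2 called 24. At an unadjusted p under 0.05 edgeR gave 515 transcripts and at an unadjusted p under 0.01, the limit used in the study, 99 (0.413%). The contrast itself chose g9250, so nothing is read from its place among them.

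Fras1 g3111 was lower in every FG1907 library than in every FG1835 library. It was at 1415, 510.0 and 1161 in the yellow and 983, 857 and 713 in the silver eels of FG1835. In FG1907 it was at 489 and 172 in the yellow eels and at 294, 18.8 and 364 in the silver eels. FG1907_06 was the lowest yellow and FG1907_02 the lowest silver eel, and the stages overlapped in both sets. Silver minus yellow was -0.50 (SE 0.70) on the log2 scale, and -0.24 (SE 0.51) without FG1907_02. The third fras1 transcript, g31226, was low throughout, at 2.26 to 21.8 in yellow and 0 to 5.42 in silver eels, with 0 to 7 counts in 9 of 11 libraries.

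Since both transcripts carry the name fras1, their counts were set against each other within each library. The ratio of g9250 to g3111 counts was 0.440, 3.71 and 1.33 in the yellow and 0.0865, 0.466 and 0.0115 in the silver eels of FG1835. In FG1907 it was 1.90 and 11.3 in the yellow and 1.43, 8.33 and 1.83 in the silver eels. The ratio therefore ranged from 0.0115 in FG1835_06 to 11.3 in FG1907_06, and g9250 had more counts than g3111 in 7 of 11 libraries, 4 yellow and 3 silver. This count went with the library set too. The ratio was 1.43 or more in every FG1907 library and 0.466 or less in every silver eel of FG1835. Such a ratio needs no size factor, but the lengths of the 2 transcripts are not known from the files, so that a ratio of 1 does not mean equal numbers of molecules.

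The sum of g9250 and g3111 was 1416 to 2701 in yellow eels (median 2112) and 175 to 1257 in silver eels (median 876), without overlap between the stages. FG1907_02 had the lowest sum, and without it the silver eels ranged from 714 to 1257. As the sum holds g9250, this too is a description of the contrast that chose the name. Sums of other transcript pairs were not looked at.

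**Figure D2:**
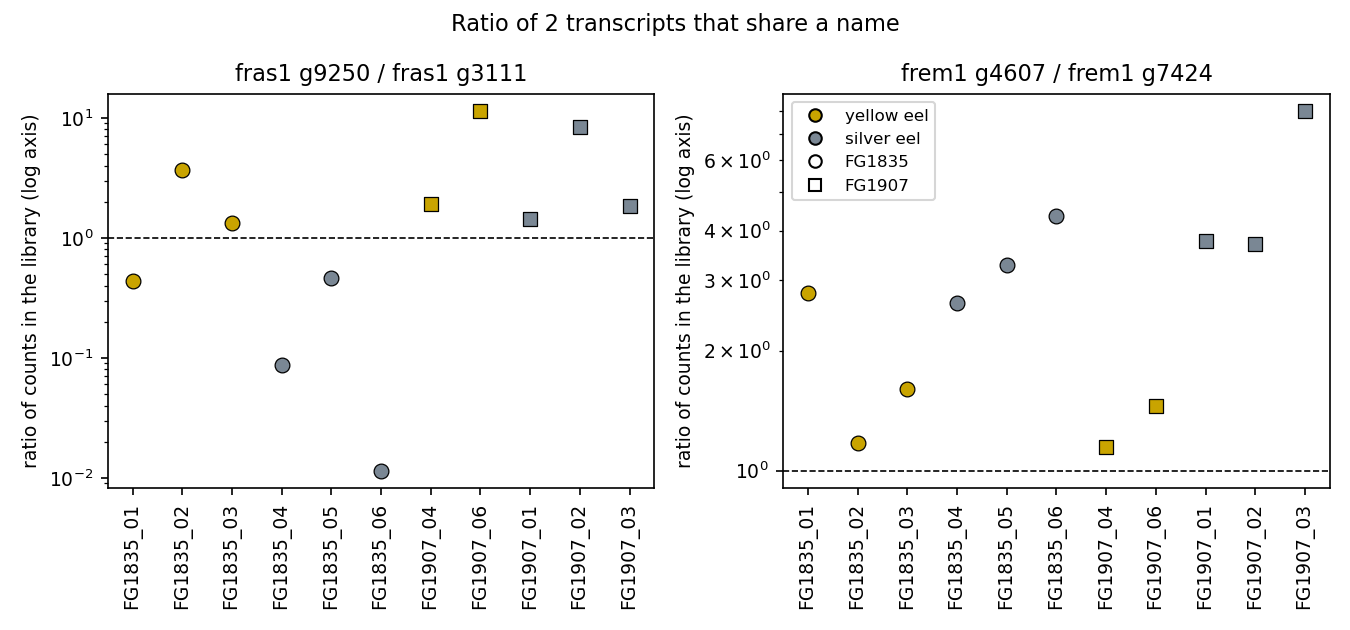
Ratio of the counts of 2 transcripts of 1 name within each library (vertical axes, log scale), fras1 g9250 to g3111 on the left and frem1 g4607 to g7424 on the right, for yellow and silver eels of FG1835 (circles) and FG1907 (squares), with a dashed line at 1. The fras1 ratio ran from 0.0115 to 11.3, and the frem1 ratio was 1.15 to 2.78 in yellow and 2.63 to 7.96 in silver eels.

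The 2 frem1 transcripts, which encode the secreted partner of Fras1, differed in level from set to set. Frem1 g4607 was at 566, 508 and 619 in the yellow and 623, 921 and 1057 in the silver eels of FG1835. In FG1907 it was at 184 and 178 in the yellow and 453, 100.1 and 524 in the silver eels. Each silver eel lay above each yellow eel of the same set except FG1907_02, which was the lowest library of all. Silver eels lay above yellow eels inside FG1835 in 6.96% of all tested transcripts. With all libraries they lay above inside both sets in 0.53%, but g4607 is not among these because of FG1907_02. The share inside both sets without FG1907_02 was not looked at. Frem1 g7424 was at 203, 433 and 386 in the yellow and 237, 281 and 243 in the silver eels of FG1835. In FG1907 it was at 161 and 122 in the yellow and 120.5, 27.1 and 65.8 in the silver eels. Its stages overlapped in FG1835 but not in FG1907, where the highest silver eel (120.5) lay just below the lowest yellow eel (122), as silver eels lay below yellow eels inside FG1907 in 7.21% of all tested transcripts. For g7424 all FG1907 libraries lay below all FG1835 libraries.

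Silver minus yellow was 0.56 (SE 0.51) for g4607 and -0.70 (SE 0.53) for g7424 on the log2 scale. Without FG1907_02 the estimates were 0.78 (SE 0.40) and -0.48 (SE 0.44). The 2 transcripts thus had estimates of opposite sign, and the ratio of g4607 to g7424 counts was 1.17 to 2.78 in the yellow and 2.63 to 4.35 in the silver eels of FG1835. In FG1907 it was 1.15 to 1.45 in the yellow and 3.69 to 7.96 in the silver eels. The ratio was higher in every silver eel than in every yellow eel of FG1907, and in FG1835 the stages overlapped by 1 pair, FG1835_01 (2.78) and FG1835_04 (2.63). Ratios of other transcript pairs were not looked at, so the share of them that separates 3 silver from 2 yellow eels is not known. In FG1907_02, where both transcripts were at their lowest, the ratio was 3.69, inside the range of the other silver eels.

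The frem2 transcript with the most counts, g23394, is named for the membrane-spanning partner of Fras1, and 1 library decided its mean. It was at 127, 60.7 and 122 in the yellow and 149, 42.3 and 55.0 in the silver eels of FG1835. In FG1907 it was at 80.3 and 96.4 in the yellow and 16.2, 1444 and 0 in the silver eels, where 0 counts in FG1907_03 allow a value of up to 3.52. FG1907_02, with 1384 of the 2190 counts, stood at 20.5 times the median of the other libraries, and the next highest library was FG1835_04. Silver minus yellow was 1.56 (SE 1.17) with all libraries and -0.89 (SE 0.80) without FG1907_02, so the direction turned with this library. In FG1907 alone without it the difference was -3.42 (SE 1.05), and in FG1835 alone -0.34 (SE 0.49). Frem2 g20478 was low, at 2.26 to 26.8 in yellow and 4.70 to 32.0 in silver eels, with a difference of 0.08 (SE 0.61), -0.09 (SE 0.64) without FG1907_02, and overlapping stages.

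FG1907_02 was therefore the highest library for frem2 g23394 and the lowest for fras1 g3111, frem1 g4607 and frem1 g7424. Among all tested transcripts FG1907_02 lay above every other library in 12.1% and below every other in 14.0%. It was not alone in this, as FG1907_03 was the highest library in 17.7% and the lowest in 14.0%, while the other 9 libraries were each the highest in 5.85% to 9.79%. In 53 transcripts (0.221%) FG1907_02 was over 5 times the next highest library. Markers of other cell types moved in the same library. The summed endothelial markers were at 31552 there against 41719.6 to 61210.1 elsewhere, those of smooth muscle and pericytes at 98527 against 36780.1 to 78789, and those of fibroblasts at 48032 against 14412 to 31350. Single genes, picked after their values were seen, moved further. Fibulin-1 (fbln1 g19162), which binds basement membrane proteins, was at 3924 against 41.7 to 562, the smooth muscle protein calponin (cnn1 g14833) at 3938 against 82.2 to 886, and lumican (lum g17120), a proteoglycan of connective tissue, at 8024 against 399 to 899. The most abundant transcripts of the names in these lists did not all go with the sums. Dermatopontin (derm g3582) was low with 98.1 against 466 to 1369. The pericyte marker rgs5 (g3655) was lowest in FG1907_02, at 2137 against 4062 to 19128. The most abundant transcripts of the smooth muscle and pericyte markers tagl, myh11 and pgfrb lay inside the range elsewhere, and that of desm was highest like cnn1. The sum of this list holds 23 transcripts of 6 names. The less abundant transcripts of these names are not given here, so the values do not describe each name as a whole. Of the endothelial markers, vwf was at 15841, inside the range of 4165 to 16125 elsewhere, while cld5 and vgfr2 were lowest. The summed epithelial markers were at 23144 in FG1907_02 against 18270.5 to 26078 elsewhere. In this list the keratins k1c18 (g5911) and k2c8 (g5912) were abundant in all libraries, with means of 11708 and 4791, and epcam (g7485) and esrp1 (g1184) were near 0, with means of 3.23 and 1.91. The cadherin cadh1 (g3555) was highest in FG1907_02, at 172 against 13.5 to 77.6 elsewhere. The summed blood and immune markers were also highest in FG1907_02, at 3596 against 944 to 3520 elsewhere. Those of mesothelium were lowest, at 1138 against 1252 to 2272. Those of nerve and glia (146 against 23.5 to 220) and skeletal muscle (930 against 534 to 1020) lay inside the range. The part that these markers have in the Fras1 and Frem values was not tested.

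**Figure D3:**
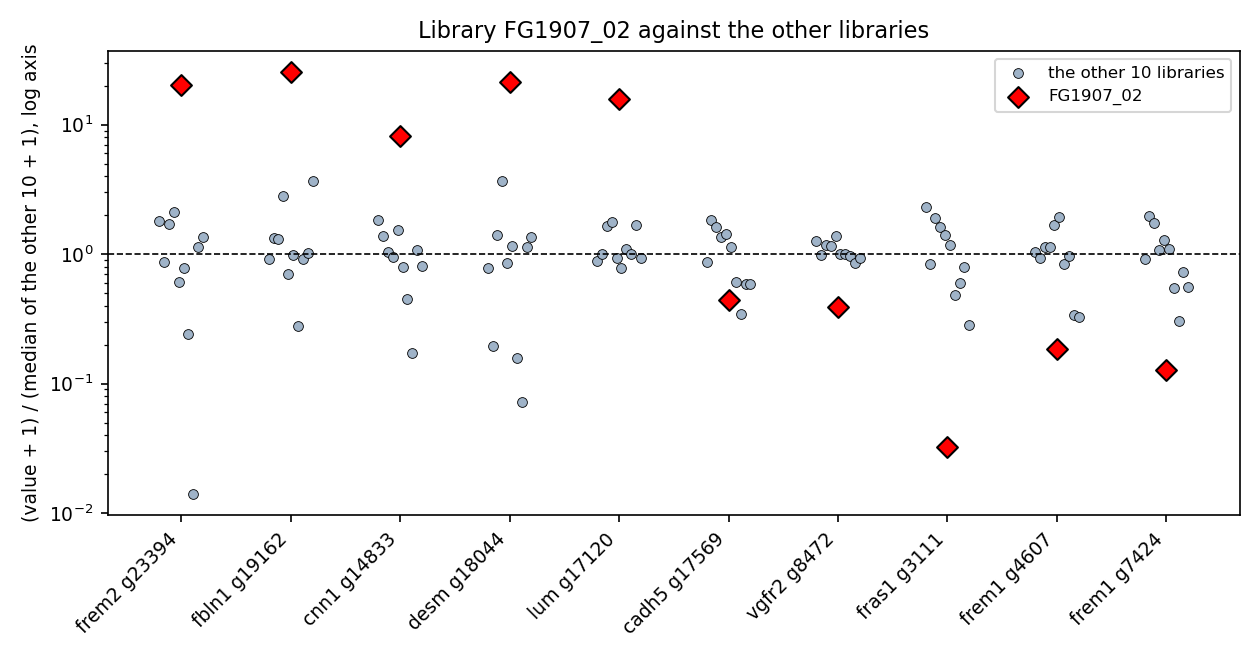
Value of each library plus 1, divided by the median of the 10 libraries other than FG1907_02 plus 1 (vertical axis, log scale), for frem2 g23394, 4 matrix and smooth muscle genes chosen after their values were seen, 2 endothelial genes, fras1 g3111 and both frem1 transcripts. Red diamonds are FG1907_02, in which frem2 g23394 was at 1444 against 0 to 149 and fras1 g3111 at 18.8 against 172 to 1415 in the other libraries.

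The contrast between the library sets did not enter the choice of the names and was tested with the stage in the model. At an adjusted p under 0.05 in edgeR, 3 of the 6 transcripts differed, all of them lower in FG1907. The background was high, since 38.6% of all tested transcripts passed and 19.0% of all tested were lower in FG1907, and 3 of 6 is not read as particular to these names. Frem1 g7424 fell from 297 ± 91.8 (SD, n = 6) in FG1835 to 99.3 ± 52.6 (SD, n = 5) in FG1907, a log2 difference of -1.59 (SE 0.33, adjusted p = 0.00312, edgeR). Frem1 g4607 fell from 716 ± 219.9 (SD, n = 6) to 288 ± 188 (SD, n = 5), a difference of -1.44 (SE 0.34, adjusted p = 0.00595, edgeR). Fras1 g3111 fell from 940 ± 322 (SD, n = 6) to 267 ± 180 (SD, n = 5), a difference of -1.81 (SE 0.54, adjusted p = 0.0204, edgeR).

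In 2 of these 3 transcripts, g3111 and g7424, the sets did not overlap, as in 11.1% of all tested transcripts in this direction, and 17.7% without FG1907_02. Without FG1907_02 the 3 differences were -1.51, -1.22 and -1.36 for g3111, g4607 and g7424, all called with adjusted p from 0.000761 to 0.0028, and frem2 g20478 was called as well (-1.70, SE 0.49, adjusted p = 0.0144, edgeR), beside 47.6% of all transcripts. For g3111 the call was lost without the yellow eel library FG1907_06 (adjusted p = 0.0611, edgeR), and among the silver eels alone none of the 6 transcripts was called, beside 1.82% of all. The estimate for g3111 there was -1.92 (SE 0.79). Among the yellow eels alone 3 transcripts were called beside 30.2% of all, and among the silver eels without FG1907_02 2 were, beside 15.8%.

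Fras1 g9250, in contrast, was not called between the sets. Its mean was 758 ± 782 (SD, n = 6) in FG1835 and 822 ± 687 (SD, n = 5) in FG1907. The log2 difference of 0.79 (SE 0.70, adjusted p = 0.390, edgeR) had an approximate 95% interval of -0.58 to 2.17. For frem2 g23394 the difference was 1.45 (SE 1.24, adjusted p = 0.374, edgeR) with all libraries and -1.39 (SE 0.72, adjusted p = 0.132, edgeR) without FG1907_02. Frem2 g20478 had a difference of -1.12 (SE 0.56, adjusted p = 0.130, edgeR) with all libraries.

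**Figure D4:**
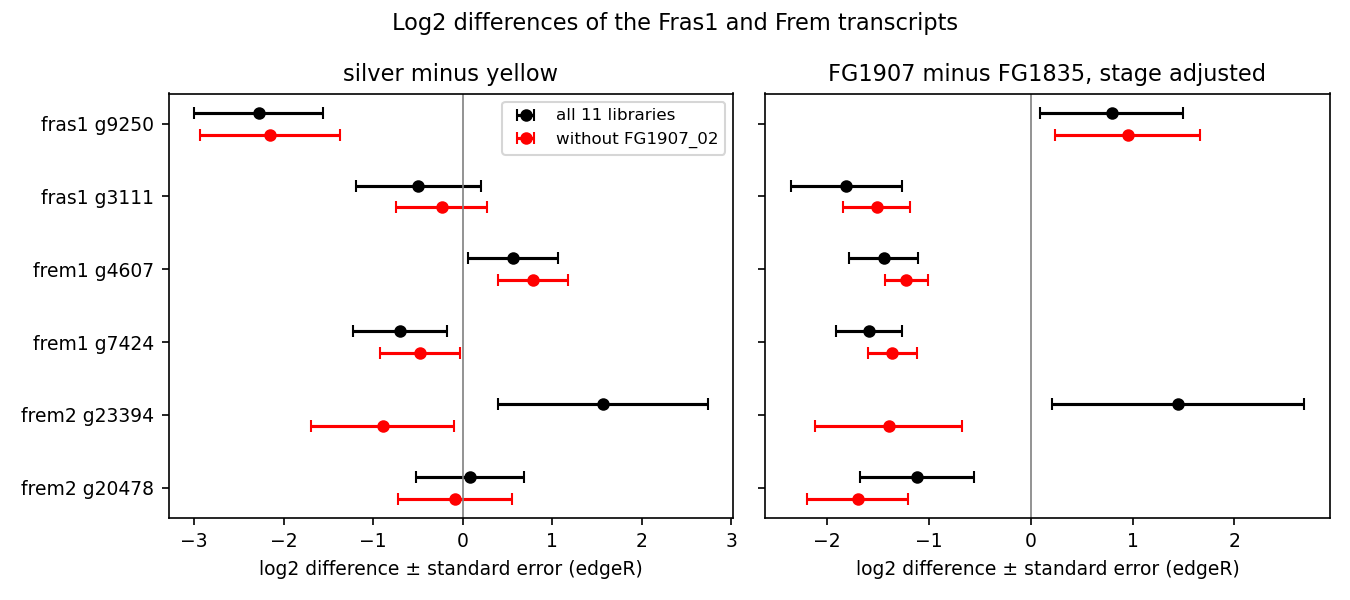
Log2 differences with their standard errors from edgeR (horizontal axes) for the 6 tested transcripts, silver minus yellow on the left and FG1907 minus FG1835 with the stage in the model on the right, with all 11 libraries (black) and without FG1907_02 (red). For frem2 g23394 the difference turned from 1.56 to -0.89 between the stages and from 1.45 to -1.39 between the sets when this library was left out.

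Whether the difference between the stages itself depended on the library set was asked with an interaction term. This fit took in 7 transcripts of the 4 names, and none of them was called in edgeR or DESeq2. For the 6 that were also tested between the stages, the adjusted p in edgeR was from 0.916 to 0.989. Over all 27103 transcripts of this fit edgeR called none, with 1344 (4.96%) at an unadjusted p under 0.05, and DESeq2 called 23. For g9250 the interaction was 1.24 on the log2 scale, with an approximate 95% interval of -1.46 to 3.94.

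Partners of the Fraser complex and other fin-fold matrix proteins were followed as a list of names, of which 55 transcripts were in the table and 26 were tested. Between the stages none passed an adjusted p of 0.05 in edgeR, and 2 had an unadjusted p under 0.05 (2.15% of all tested transcripts did). In silver eels 7 had higher and 19 lower estimates, with a median of -0.17 against 0.0046 over all transcripts. The share of all tested transcripts with lower estimates was not counted. The counts of 7 and 19 are not given without FG1907_02 and are not read as a result. Grip2 (g11128), a relative of the adaptor protein Grip1 that carries Fras1 and Frem2 to the cell surface, was at 6941 ± 1097 (SD, n = 5) in yellow and 6059 ± 1914 (SD, n = 6) in silver eels. Without FG1907_02, its lowest library at 2714, the silver mean was 6728 ± 1107 (SD, n = 5). Grip1 itself (g17783) was low, at 14.7 on average and 3.52 to 34.4 over the libraries. Integrin beta-1 (itb1 g14913), a receptor for basement membrane proteins, was at 7154 ± 1419 (SD, n = 5) and 5724 ± 2366 (SD, n = 6). Without FG1907_02, again the lowest library at 1829, the silver mean was 6503 ± 1564 (SD, n = 5). Nephronectin (npnt g5152), a ligand of integrin alpha-8 that is held at the membrane by the Fras1 complex in the mouse, was at 55.6 ± 28.1 (SD, n = 5) and 38.7 ± 36.5 (SD, n = 6). Here FG1907_02 was the highest library at 103, and without it the silver mean was 25.8 ± 20.4 (SD, n = 5). Vwa2 (g16924), whose product AMACO binds Fras1 in the mouse, was at 0.0843 on average.

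Between the library sets 7 of the 26 partner transcripts were called, 2 higher and 5 lower in FG1907, beside 38.6% of all. Hemicentin-1 (hmcn1 g31033), the nagel gene of zebrafish, was at 79.2 to 449.8 in FG1835 and 17.0 to 117 in FG1907 and fell by 2.02 on the log2 scale (SE 0.45, adjusted p = 0.00447, edgeR). Integrin alpha-3 (ita3 g12441) fell by 1.05 (SE 0.22, adjusted p = 0.00382, edgeR) and the protease furin (furin g27235), which cleaves many secreted proteins, by 1.34 (SE 0.36, adjusted p = 0.0116, edgeR). Bmp1 (g7506), a protease of matrix proteins that is mutated in the frilly fins line of zebrafish, was higher in FG1907 by 0.71 (SE 0.17, adjusted p = 0.00593, edgeR).

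Of 59 tested transcripts of basement membrane proteins (laminins, type IV collagens, nidogens, perlecan and others) none passed an adjusted p of 0.05 between the stages in edgeR and 4 had an unadjusted p under 0.05, beside 2.15% of all tested transcripts. Estimates were higher in silver eels in 13 and lower in 46, with a median of -0.33 against 0.0046 over all transcripts. The share of all tested transcripts with lower estimates was not counted. The counts of higher and lower estimates are not given without the silver eel library FG1907_02 and are not read as a result. Laminin alpha-4 (lama4 g11257), a chain of the vessel wall, was at 11283 ± 3213 (SD, n = 5) in yellow and 10683 ± 2591 (SD, n = 6) in silver eels. Collagen IV alpha-1 (co4a1 g5551) was at 12382 ± 3103 (SD, n = 5) and 9248 ± 2628 (SD, n = 6). Without FG1907_02 the silver means of lama4 and co4a1 were 10651 ± 2896 and 10194 ± 1386 (SD, n = 5). Between the sets 25 of the 59 were called, 9 higher and 16 lower in FG1907, beside 38.6% of all called and 19.0% of all lower. Nidogen-1 (nid1 g31452), which links laminin and collagen IV, was at 183 to 205 in FG1835 and 342 to 890 in FG1907 (log2 difference 1.50, SE 0.22, adjusted p = 0.000477, edgeR), the opposite direction to fras1 g3111 and frem1.

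The named transcripts whose log2 values over the 11 libraries were most like fras1 g9250 were ranked among 13232 with a mean value above 50. The 11 points share the stages and the library sets, so the coefficients are a description. Among the highest were k2018 (g12553, a helix-loop-helix protein, Pearson r = 0.85), dhdh (g8619, a dehydrogenase, 0.83), pde1a (g5961, a phosphodiesterase, 0.83) and s2533 (g16441, a mitochondrial carrier, 0.82). They were followed by stk36 (g14743, 0.82), snx15 (g4060, 0.80), ehd1 (g6734, 0.79), gnai1 (g25293, 0.79) and brd8 (g29718, 0.78). The coefficients differed between the library sets. They were 0.95 in FG1835 and 0.30 in FG1907 for stk36, 0.93 and 0.50 for ehd1, and 0.96 and 0.53 for s2533. For dhdh (0.84 and 0.94) and brd8 (0.80 and 0.98) FG1907 gave the higher value. Among the lowest were pa24b (g16711, a phospholipase A2, -0.85), rel (g5603, -0.84), ciks (g9076, -0.83) and ada15 (g20506, -0.81). The other Fras1 and Frem transcripts were not near the top, with g7424 at rank 5603 (0.11), g3111 at rank 6925 (0.02), g23394 at rank 9191 (-0.14) and g4607 at rank 11668 (-0.32). Of the partner and basement membrane lists the transcript most like g9250 was an integrin beta-1 transcript (itb1 g10875) at rank 117 (0.63).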

How the data were processed

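RNA of the rete mirabile was sequenced as 1 library per eel. The authors mapped the reads with TopHat 2.0.13 to the draft genome of the eel, dropped secondary alignments (SAMtools 1.2) and obtained fragment counts per predicted gene with HTSeq 0.6.1p1, which were deposited raw. The deposited base means are a signal that the authors made by dividing counts by DESeq size factors, and values computed here matched them to within 0.000107 of each value. The similarity of the deposited annotation matches is a fraction as given by the authors. The deposited fold changes and p-values of the authors were not used. The column FG1935_03 was read as FG1835_03, the library title that no other column carries.

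Contrasts were fitted with edgeR 4.0.16 (TMM, filterByExpr, quasi-likelihood test) in R 4.3.3 and adjusted by Benjamini-Hochberg over all transcripts tested at 0.05, and the standard error is the log2 estimate over the root of F. DESeq2 1.42.0, limma 3.58.1 (voom), median-of-ratios scaling, no filter, the library set as a term or alone, 1 stage alone, no stage term and each library left out were alternatives. Leaving out FG1907_02 together with another change was added after seeing the data. The 95% intervals take a normal multiplier of the standard error, which makes them somewhat too narrow for so few eels. The fits were run on simulated data with the same dispersion for every transcript, no difference beyond the tested contrast and no outlying library. Such data do not show how the fits do with a library like FG1907_02. DESeq2 gave frem2 g23394 no p because of an outlying count. For the ranking by likeness 1 was added before taking logs.

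Every transcript of the 4 names is described. Of each list the most abundant transcript of a name could be named, with the 10 transcripts most like and the 5 least like the fras1 transcript with the most counts. Of these, 1 of the former and 1 of the latter are not reported here. Names and lists were chosen with earlier results of these data known. Depth limits low transcripts, and the value of 3 counts is given as the limit of a count of 0. This limit covers counting error only. Each replicate is a separate eel.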

Additional observations from a re-analysis of the deposited data

Results flagged for a closer look

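In the silver eels the highest value of frem2 g23394, 1444 in FG1907_02, was separated from the next, 149, by 0.897 of the range of the 6 silver eels. Among the 5 FG1907 libraries the same value of 1444 was separated from the next, 96.4, by 0.933 of the range. Both cases rest on 1 library. In all, 28 sets of values (7 transcripts in the yellow eels, the silver eels, FG1835 and FG1907) were looked at for such a lone value. The limits used flag about 1 in 20 sets of independent, normally distributed values. That rate is not known for these sets, which share libraries. Both flags are the same value, in a library that the second principal component had set apart. Nothing is read from their number.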

How the results depend on the processing

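Without FG1907_02, 5 of 6 estimates were below 0 in silver eels against 3 of 6 with it (3 to 5 with each library left out in turn). There were 5 of 6 in FG1835 alone, 5 of 6 with the set term and without FG1907_02, and 10 of 13 without a filter. These counts hold g9250, whose stage difference chose the names, and are not read as a result about the names. The median estimate over all transcripts was -0.0012 without FG1907_02 and 0.0046 with it, and the share of them below 0 was not counted. Among all transcripts the stages gave 99 at an unadjusted p under 0.01, against 207 in DESeq2, 229 without a filter, 196 with the set term, 448 in FG1835 alone, 377 with the set term and without FG1907_02, and 275 in FG1907 without FG1907_02 (87 to 145 with each library left out). At an adjusted p under 0.05 they gave 0 in edgeR, 24 in DESeq2, 2 with the set term and without FG1907_02, and 0 to 1 with each library left out. Between the sets 38.6% were called with all libraries, which fell to 427 transcripts in silver eels alone and to 3870 in silver eels without FG1907_02 (7134 to 11671 with each library left out). Of the 6 Fras1 and Frem transcripts 3 were called, 0 in silver eels alone and 2 to 4 with each library left out. The set difference of frem2 g23394 was -1.39 without FG1907_02, -0.75 in limma, -0.22 in yellow eels alone and -3.33 in silver eels without FG1907_02, against 1.45 (-1.39 to 1.91 with each library left out). The cause of these shifts was not tested, beyond fewer eels or more transcripts in the fit. For fras1 g9250 the stage difference stayed between -2.70 and -2.02 with each library left out, which again describes the contrast that chose it. No paired analysis was possible because each title names its own eel and the numbers mark no shared animal or day. Depth limits frem2 g20478 and the transcripts that were not tested.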

Other observations

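Other proteins with the repeats of the Fras1 family were followed as a list of 34 transcripts, of which 9 were tested. Between the stages none passed an adjusted p of 0.05 in edgeR, and 3 had an unadjusted p under 0.05 (2.15% of all tested transcripts did). In silver eels 2 estimates were higher and 7 lower, beside a share over all transcripts that was not counted. Integrin beta-4 (itb4 g8186), the hemidesmosome integrin that carries a Calx-beta repeat, was at 82.6 to 198 in yellow eels and 127 to 1515 in silver eels, highest in FG1907_02 (1515) and FG1835_04 (1291). The log2 difference of 2.24 (SE 0.57) had an adjusted p of 1.00 in edgeR and 0.0401 in DESeq2, with a difference of 1.83 without FG1907_02. Cspg4 (g2571), the pericyte proteoglycan NG2, was at 2200 to 4934 in FG1835 and 926 to 2209 in FG1907, a log2 difference of -0.92 (SE 0.24, adjusted p = 0.011, edgeR). The sodium-calcium exchangers nac1 (g24363) and nac3 (g15417) each stood high in 1 silver eel, nac1 at 311 in FG1907_02 against 10.6 to 45.5 elsewhere and nac3 at 153 in FG1907_01 against 0 to 2.73 elsewhere, the latter too low in most libraries to be tested.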
